A study of Dicosmoecus gilvipes with 20 samples.

Results

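Proteases and peptidases are described here from 91 assembled transcripts (contigs) of the caddisfly *Dicosmoecus gilvipes*. They are the rows of the authors' table of 2586 differentially expressed contigs whose protein match contains the words trypsin, protease or peptidase, without subcomponent comp55087_c0, a chymotrypsin. A subcomponent is a group of contigs that the assembler Trinity built from the same overlapping reads, and the 91 contigs belong to 42 of them. The whole assembly holds 135858 contigs in 79613 subcomponents. The table lists contigs that the authors found to differ between temperatures in these same libraries, so that the members were chosen by measured values, the same estimated counts that are described here. The levels, fold changes and counts of members below are therefore descriptions, and nothing is read from how many of them differ.

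The study held larvae of the fifth instar at 15.5, 20, 25 or 28.6°C, dissected the thorax and sequenced polyA RNA of pooled animals in 5 libraries per temperature, 20 in all. All larvae came from the same river and shared a period in common cool conditions before the tanks were warmed. The 5 libraries of a temperature contain the same larvae, so their SD holds technical variation, including how shared reads were divided, but no variation between animals. The lowest temperature, 15.5°C, serves as the reference.

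Proteases cut peptide bonds. Endopeptidases such as trypsin and chymotrypsin cut inside a protein chain, and exopeptidases remove residues from its ends. In insects, trypsins and chymotrypsins made by the midgut digest food protein. The related clip-domain serine proteases easter, snake and persephone, named from *Drosophila*, act in cascades that end in Toll signalling. Ubiquitin carboxyl-terminal hydrolases (USPs) work inside the cell, where they remove ubiquitin from proteins.

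By protein match, 71 of the 91 contigs were serine endopeptidases, 11 were exopeptidases, 6 were deubiquitinating enzymes and 3 were inhibitors of serine proteases that the search words also caught. Among the serine endopeptidases, 33 matched a trypsin, 17 matched a chymotrypsin, 16 matched easter, snake or persephone, and 5 matched other proteins. The 91 contigs matched 30 different proteins, and the most frequent was Trypsin-1 with 19 contigs. Identity to the protein in the other species had a median of 35.5% and reached from 23.7% to 62.9%, so that the names give the nearest match and not a proven function. Contigs named below for reasons other than a high mean or a wide range in their class were chosen after their values were seen. Contigs were between 365 and 4732 bases long with a median of 1182.

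Each library held between 6756103 and 14236152 estimated counts. Contigs of a single ribosomal-like subcomponent took 45.0% and 77.0% of the counts in replicates 1 and 4 of 20°C and at most 15.1% in the other 18 libraries. Levels are given as CPM, counts relative to a library size scaled by edgeR's TMM method, which is set so that most contigs do not differ between libraries. Libraries also fell into 2 sets by the longest read position in their parameter files, 12 in a shorter set (all 5 of 28.6°C, 4 of 20°C, 2 of 15.5°C, 1 of 25°C) and 8 in a longer set. Temperature and set are therefore partly confounded, and values within a set are given beside the summed levels.

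As a whole, the protease contigs were most abundant at 20°C and least abundant at 28.6°C. Their summed level was 11320.1 ± 288 CPM (SD, n = 5 libraries) at 15.5, 21013.5 ± 1778 at 20, 6826 ± 512 at 25 and 3373 ± 141 at 28.6°C. The libraries of the 4 temperatures did not overlap. The same order was seen without TMM when counts outside the ribosomal-like contigs were the denominator. The members then took 1.47%, 1.45%, 1.49%, 1.51% and 1.46% of the counts at 15.5, 1.88%, 2.06%, 2.06%, 1.87% and 2.01% at 20, 0.900%, 0.748%, 0.834%, 0.816% and 0.827% at 25, and 0.369%, 0.393%, 0.384%, 0.406% and 0.381% at 28.6°C. Replicates 1 and 4 of 20°C were the lowest of their group but still above every library of the other temperatures. In libraries of this kind, fewer cells that make an enzyme and less RNA of it in each cell cannot be told apart.

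Within the shorter set the log2 ratio of the summed level was -1.76 at 28.6°C and 0.85 at 20°C against 15.5°C, where all libraries gave -1.75 and 0.89. At 25°C it was -0.60 in the shorter set, which holds 1 library of that temperature, -0.76 in the longer set and -0.73 in all libraries. The difference at 20°C depended on the scaling. With library size alone the log2 ratio of the summed level was 0.05 in all libraries and -0.06 in the shorter set. It was 0.47 with library size alone once replicates 1 and 4 of 20°C were left out. With library size alone, in which the ribosomal-like counts enter the denominator, the median log2 fold change of all 29292 contigs tested at 20°C against 15.5°C moved from 0.01 to -0.86, that of the tested members from 0.64 to -0.23, and 28 of the 80 tested members changed sign, none of them among the 13 called. At 28.6°C against 15.5°C library size alone moved the median of all contigs to -0.29 and changed the sign of 0 of 80 members.

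**Figure D1:**
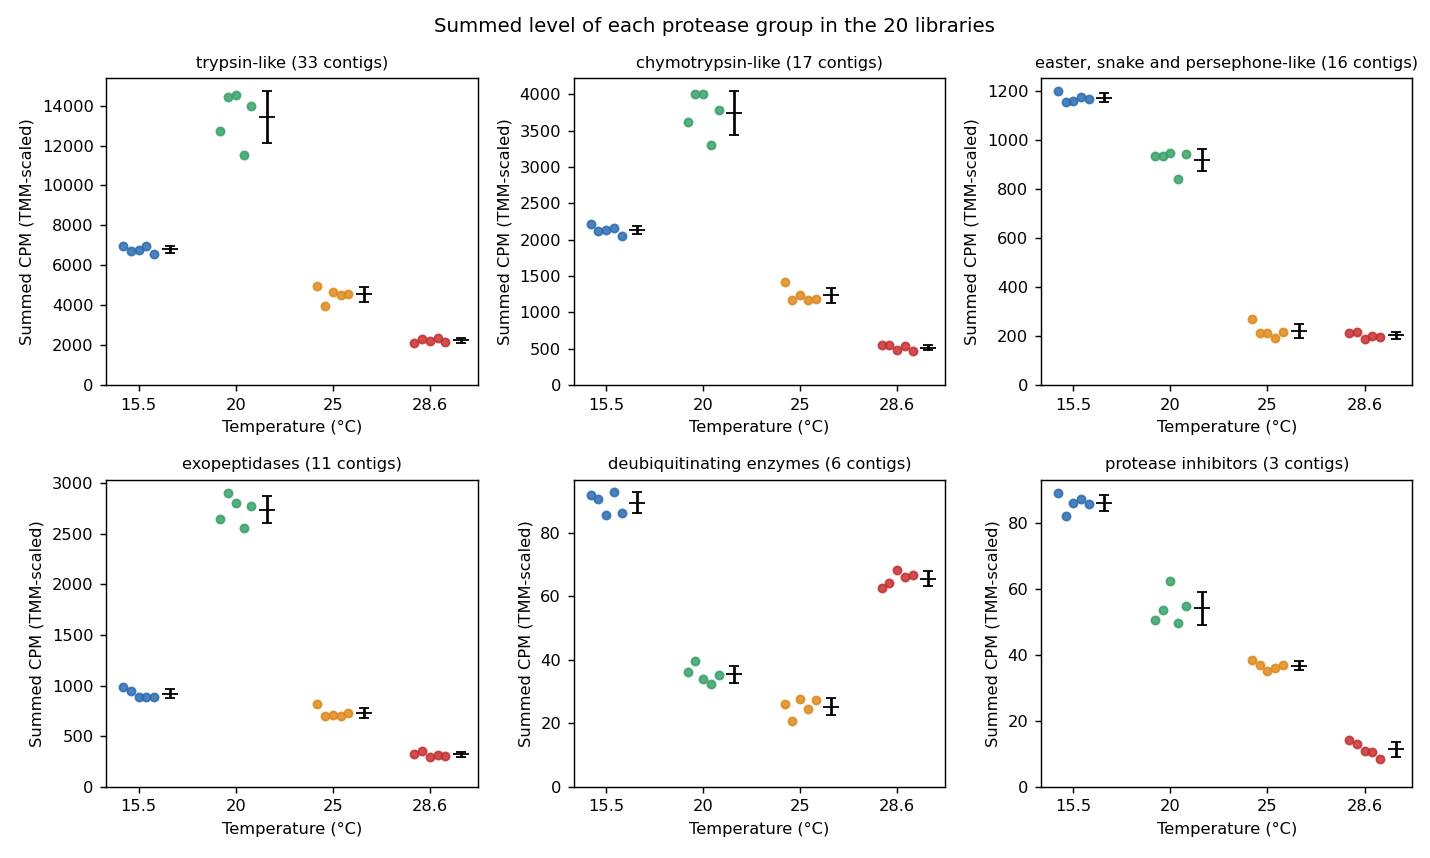
Summed CPM (TMM-scaled, vertical axes from 0) of 6 groups of protease contigs in each of the 20 libraries, by temperature; points are libraries, and the bar beside them is the mean with its SD (n = 5). Trypsin-like contigs lie between 11510 and 14543 CPM at 20°C and at 2237 ± 108 CPM at 28.6°C, whereas deubiquitinating enzymes are lowest at 25°C and lie between 62.6 and 68.3 CPM at 28.6°C.

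Of the 91 contigs, 80 had at least 2 CPM in at least 4 libraries and were tested, and the remaining 11 had between 5 and 231 estimated counts over all 20 libraries. A contig was called where the adjusted p of edgeR's quasi-likelihood test was below 0.05 and the fold change was at least 4 or at most 0.25. Over the 6 comparisons, 71 of the 80 were called at least once, beside 21.7% of all contigs tested. Because the authors drew their table from the same comparisons, this share is not a result about proteases. The directions and temperatures below are likewise a description of contigs chosen in these libraries.

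The change with warming was mostly downwards, and it was larger at 28.6°C than at 25°C. At 28.6°C against 15.5°C, 45 contigs were called lower and 5 higher (13.3% of all contigs were called, 5.72% lower and 7.58% higher), with a median log2 fold change of -2.14 beside 0.01 for all contigs tested. At 25°C against 15.5°C, 21 were called lower and 7 higher (7.21% of all contigs called, 2.89% lower and 4.33% higher), with a median of -1.04. At 20°C against 15.5°C, 8 were called higher and 5 lower (4.64% called, 2.82% higher and 1.82% lower), with a median of 0.64. With library size alone that last split was 3 higher and 11 lower.

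Set against 20°C, where most members peaked, the same contigs lay further down. At 28.6°C against 20°C 47 were called lower and 4 higher (11.3% of all contigs called, 5.56% lower and 5.75% higher) with a median log2 fold change of -2.40. The comparison of 25°C with 20°C gave 17 lower and 2 higher (3.96% called, 1.98% in each direction) with a median of -1.26, and 8 lower and 6 higher with library size alone. Between 28.6°C and 25°C, 16 were called lower and 1 higher (6.23% called, 2.98% lower and 3.25% higher) with a median of -1.14. Without replicates 1 and 4 of 20°C, 50 were called lower and 4 higher at 28.6°C against 20°C, 18 lower and 0 higher at 25°C against 20°C, and 4 lower and 7 higher at 20°C against 15.5°C. Comparisons with the same reference share its 5 libraries and are not independent of each other.

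By mean CPM, 44 of the 80 tested contigs were highest at 20°C, 24 at 15.5, 5 at 25 and 7 at 28.6°C, while 55 were lowest at 28.6°C, 12 at 25, 11 at 15.5 and 2 at 20°C. Subcomponent sums, which can also hold contigs that are no members, gave the same picture. Of the 42, 23 were highest at 20°C, 15 at 15.5, 1 at 25 and 3 at 28.6°C, and 32 were lowest at 28.6°C. In the authors' FPKM values, which are relative to all mapped fragments and so include the ribosomal-like counts, 41 contigs were highest at 15.5°C and 23 at 20°C. That most contigs were highest at 20°C is therefore a statement on the TMM scale. The summed level was highest at 20°C on that scale and on counts without the ribosomal-like contigs.

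The contigs closest to the fold criterion of 4, a log2 fold change of 2, were Chymotrypsin-1 (comp55996_c0_seq1), whose largest log2 difference of the 6 was 2.05, and USP14 (comp58612_c0_seq1) with 2.08. Just under it were Trypsin, alkaline B (comp58383_c0_seq2) with 1.92 and USP47 (comp61130_c0_seq2) with 1.91. The smallest largest difference of a member was 1.21, for Gamma-glutamyl hydrolase A (comp60304_c0_seq1). Of the 9 tested members without a call, 1 was past the fold criterion but not the adjusted p, Trypsin 5G1 (comp59772_c0_seq4) with 2.16.

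Trypsins cut proteins behind lysine and arginine and were the most abundant group. The 33 trypsin-like contigs summed to 6806 ± 187 CPM (SD, n = 5) at 15.5, 13437 ± 1295 at 20, 4539 ± 358 at 25 and 2237 ± 108 at 28.6°C. Of the 31 tested, 27 had their highest mean at 20°C and 24 their lowest at 28.6°C. At 20°C against 15.5°C 28 had a log2 fold change above 0, with a median of 0.84 (13 and -0.08 with library size alone). At 28.6°C against 15.5°C 21 were called lower and 0 higher (13.3% of all contigs called, 5.72% lower), and 27 lay lower without overlap between libraries (19.1% of all contigs lay lower without overlap). The log2 ratio of the sum at 20°C against 15.5°C was 0.98, 0.14 with library size alone, and 0.58 with library size alone once replicates 1 and 4 of 20°C were left out. In the shorter set it was 0.94 at 20°C and -1.62 at 28.6°C against 15.5°C (all libraries -1.61), and in the longer set -0.61 at 25°C (all libraries -0.58).

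Much of that level came from subcomponent comp63940_c0, of which 10 of 11 contigs are members with matches to Trypsin-1, Trypsin-3 or Trypsin-7. Its sum was 4275, 4024, 4234, 4339 and 4069 CPM at 15.5, 9021, 10353, 10632, 8348 and 10065 at 20, 3692, 2855, 3453, 3375 and 3369 at 25, and 1593, 1752, 1708, 1861 and 1663 at 28.6°C. The 4 temperatures did not overlap, and the log2 fold change at 28.6°C was -1.29 (standard error, SE, 0.06) against 15.5°C and -2.50 (0.07) against 20°C.

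The contigs inside comp63940_c0 differed from each other. Contig comp63940_c0_seq9, with a mean of 2526 FPKM the highest member per length, had 920.4, 777, 798, 854 and 831 CPM at 15.5, 2177, 2906, 2679.9, 2045 and 2749 at 20, 1263, 828, 1154, 1105 and 1152 at 25, and 623, 674, 680.2, 748 and 671 at 28.6°C. Levels at 28.6°C were just below those at 15.5°C without overlap, and those at 25°C overlapped 15.5°C. Contig comp63940_c0_seq6 had 1361, 1344, 1307, 1328 and 1185 CPM at 15.5, 2406, 2425, 2359.6, 2392 and 2502 at 20, 589, 416, 465, 469.7 and 446 at 25, and 169.3, 210.1, 218, 217 and 219 at 28.6°C. It was lower at 28.6°C by a log2 fold change of -2.66 (SE 0.08), against -0.30 (0.10) for comp63940_c0_seq9 and -0.82 (0.10) for comp63940_c0_seq8, the other abundant Trypsin-1 contig.

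As a result the make-up of comp63940_c0 differed between temperatures. The share of comp63940_c0_seq6 in its counts was 30.9% at 15.5, 25.6% at 20, 14.3% at 25 and 11.9% at 28.6°C, and that of comp63940_c0_seq9 was 19.8%, 26.2%, 32.9% and 39.1%. Reads that map to only 1 contig made up 6.598% of the counts of comp63940_c0_seq6 and 9.45% of those of comp63940_c0_seq9, so these shares rest on how eXpress divided shared reads. On unique counts alone the log2 fold change at 28.6°C against 15.5°C was -1.999 for comp63940_c0_seq6 and -0.52 for comp63940_c0_seq9.

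In subcomponent comp64265_c3 all 8 contigs are Trypsin-1 members. Its sum was 1722 ± 59.5 CPM (SD, n = 5) at 15.5, 2433 ± 189 at 20, 629.8 ± 30.4 at 25 and 335 ± 23.3 at 28.6°C, without overlap between any temperatures. Contig comp64265_c3_seq1 had 403 ± 47.9, 207 ± 63.4, 43.5 ± 20.2 and 126 ± 22.4 CPM in the order of temperature, and comp64265_c3_seq2 had 408 ± 47.4, 1041 ± 93.2, 339 ± 19.1 and 40.8 ± 5.88. The 2 contigs thus started alike and were in opposite order at 25°C and 28.6°C. Their shares of the subcomponent were 6.96% and 54.2% at 25°C and 36.9% and 12.1% at 28.6°C. The tested trypsin-like contigs had a median of 0.709% unique reads, so the division of shared reads can enter these values.

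**Figure D2:**
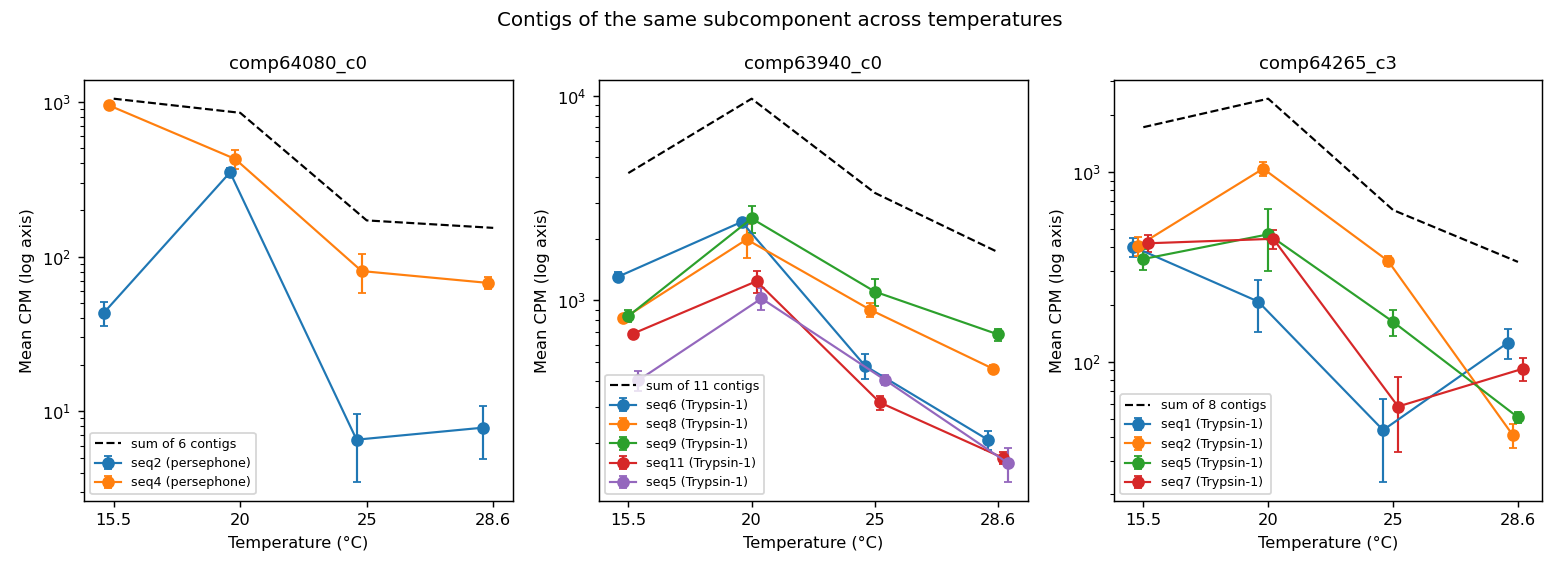
Mean CPM (log axis) by temperature for contigs of the subcomponents comp64080_c0, comp63940_c0 and comp64265_c3; error bars are SD (n = 5 libraries), and the dashed line is the sum of all contigs of the subcomponent. The sums of the trypsin subcomponents peak at 20°C, and contigs of the same subcomponent cross each other, such as comp64265_c3_seq1 and comp64265_c3_seq2 between 25°C and 28.6°C. Levels of single contigs can depend on how shared reads were divided.

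Trypsin contigs that are alone in their subcomponent avoid this problem. Trypsin-7 contig comp57885_c0_seq1 had 41.8, 42.7, 41.1, 40.9 and 38.8 CPM at 15.5, 57.6, 60.5, 58.8, 57.3 and 57.6 at 20, 6.14, 7.38, 7.61, 7.17 and 6.82 at 25, and 3.40, 2.79, 3.79, 3.18 and 2.75 at 28.6°C. No temperatures overlapped, and its log2 fold change was -2.55 (SE 0.08) at 25°C and -3.68 (0.09) at 28.6°C against 15.5°C. Another Trypsin-7 contig, comp55070_c1_seq1, had 416 ± 9.12, 677 ± 56.5, 182 ± 17.1 and 38.9 ± 3.35 CPM, and on the log2 scale its step down was larger between 25°C and 28.6°C than between 15.5°C and 25°C. Trypsin-5 went the other way at 20°C: the sum of comp60508_c3 was 87.9 ± 3.51 CPM at 15.5, 46.7 ± 2.76 at 20, 21.9 ± 1.48 at 25 and 9.94 ± 2.09 at 28.6°C.

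Trypsin-1 contig comp59772_c0_seq7, one of the members with the widest range, had no estimated counts in any library of 28.6°C. It had 5.28, 3.29, 2.02, 3.10 and 1.80 CPM at 15.5°C, 6.25, 4.88, 2.20, 11.1 and 4.54 at 20°C, and 0.445, 1.60, 2.19, 2.46 and 0.960 at 25°C. With a floor of 3 counts per library its level at 28.6°C was at least 9.50-fold lower than at 15.5°C and at least 17.7-fold lower than at 20°C. None of its reads were unique, and the sum of its subcomponent was lower by a log2 fold change of -3.81 (SE 0.12) against 15.5°C.

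Chymotrypsins cut behind large hydrophobic residues and act beside trypsin in the gut. The 17 chymotrypsin-like contigs summed to 2137 ± 59.1 CPM (SD, n = 5) at 15.5, 3744 ± 298 at 20, 1236 ± 106 at 25 and 517 ± 36.2 at 28.6°C. The log2 ratio at 20°C against 15.5°C was 0.81, -0.04 with library size alone, and 0.38 with library size alone once replicates 1 and 4 of 20°C were left out. In the shorter set it was 0.76 at 20°C and -2.07 at 28.6°C (all libraries -2.05), and in the longer set -0.83 at 25°C (all libraries -0.79). Among the 16 tested contigs 8 were called lower at 28.6°C than at 15.5°C and 0 higher (13.3% of all contigs called, 5.72% lower). All 9 subcomponents of the group had a negative log2 fold change at 28.6°C against 15.5°C, 5 of them called, and all 9 were called lower at 28.6°C than at 20°C (6.94% and 6% of all subcomponents were called). Among the 9, comp64589_c1 is mixed. It also holds a member matched to Transmembrane protease serine 3 and a Collagenase contig that is no member. That Collagenase contig, comp64589_c1_seq1, had a mean of 642 CPM at 15.5°C.

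Chymotrypsin BI contig comp58365_c0_seq1, alone in its subcomponent, peaked sharply at 20°C. Its level was 249.8, 237, 252, 252 and 238 CPM at 15.5, 1331, 1508, 1558, 1250.3 and 1564 at 20, 299, 244, 257, 254 and 248 at 25, and 51.0, 68.6, 52.5, 57.3 and 55.3 at 28.6°C. Libraries of 25°C and 15.5°C overlapped, and the other temperatures were separate. Its log2 fold change against 15.5°C was 2.55 (SE 0.08) at 20, 0.08 (0.08) at 25 and -2.11 (0.08) at 28.6°C. This contig was chosen after its values were seen.

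Chymotrypsin-2 contig comp57741_c0_seq2 was seen mainly at 25°C, where the 5 libraries had 1.51, 2.34, 3.34, 2.89 and 4.42 CPM. It had no estimated counts at 15.5°C, which makes the level at 25°C at least 10.99-fold higher with a floor of 3 counts per library. The sum of its 5 contigs, all of them members, did not show this, with 88.1 ± 3.41 CPM at 15.5, 162 ± 15.0 at 20, 130.4 ± 12.3 at 25 and 17.0 ± 2.11 at 28.6°C.

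Markers of the digestive tract were measured in the same libraries because trypsin and chymotrypsin are gut enzymes and the thorax was dissected to keep gut out. Alpha-amylase (comp57363_c0_seq1) and the chymotrypsin left out above (comp55087_c0_seq1) together had between 303 and 353 CPM at 15.5, 425 and 487 at 20, 282 and 318 at 25 and 65.9 and 85.8 at 28.6°C, both of 2 markers above 0. They were highest at 20°C and lowest at 28.6°C, as were the trypsins and chymotrypsins. The study had picked both markers for their differences between temperatures in this experiment. Their likeness to the members is therefore no independent reading of tissue. The part of gut tissue in these levels was not tested.

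All 5 thorax muscle markers were above 0, with a sum between 912 and 1195 CPM at 15.5, 1279 and 1510 at 20, 1104 and 1321 at 25, and 1030 and 1331 at 28.6°C. That sum was almost all Troponin I (comp62634_c1_seq14), which was not called in any comparison, and the less abundant markers did not follow it. Both outcomes were given by the choice of markers. The study took Troponin I as a reference gene for its low variation in this experiment. The other 4 contigs come from the authors' table of contigs that differ between temperatures. Myosin light chain kinase (comp57446_c0_seq1) had means of 6.23, 35.2, 9.28 and 1.86 CPM in the order of temperature, with log2 fold changes of 2.49 at 20°C against 15.5°C and -4.24 at 28.6°C against 20°C, both called. Its other contig, comp57446_c0_seq2, had 19.0, 46.7, 19.3 and 5.98 CPM. Titin contig comp60551_c0_seq2 had 0.461, 6.02, 2.93 and 2.01 CPM and was called higher at 20, 25 and 28.6°C than at 15.5°C, and comp60551_c0_seq3 had 3.01, 18.1, 9.04 and 5.80 CPM. All 4 of these contigs were highest at 20°C, as were the trypsins, and their part in the results was not tested.

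The summed level of the clip-domain proteases easter, snake and persephone was lower at 20°C than at 15.5°C. The 16 contigs summed to 1173 ± 17.7 CPM (SD, n = 5) at 15.5, 921 ± 44.6 at 20, 222 ± 28.9 at 25 and 203 ± 12.8 at 28.6°C. The largest step lay between 20°C and 25°C, and libraries of 25°C and 28.6°C overlapped. Not every contig followed the sum at 20°C. Of the 12 tested, 7 had a log2 fold change above 0 at 20°C against 15.5°C, with a median of 0.40 (4 and -0.40 with library size alone), and 4 of the 7 subcomponents were above 0 with a median of 0.39. At 28.6°C against 15.5°C 6 contigs were called lower and 3 higher (13.3% of all contigs called, 5.72% lower and 7.58% higher). The log2 ratio of the sum against 15.5°C was -0.35 at 20°C and -2.53 at 28.6°C, -0.37 and -2.54 in the shorter set, and at 25°C it was -2.40 in all libraries and -2.48 in the longer set. Phenoloxidase subunits, proteins of the haemolymph, had between 32.5 and 35.3 CPM at 15.5, 24.3 and 32.4 at 20, 29.8 and 39.8 at 25, and 6.15 and 9.39 at 28.6°C. These too had been picked by the study for differences between temperatures in this experiment, and their part was not tested.

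Most of that sum at 15.5°C and 20°C lay in subcomponent comp64080_c0, in which 4 of 6 contigs are members, matched to persephone or snake. The whole subcomponent had 1062, 1022, 1048, 1054 and 1049.9 CPM at 15.5, 869.5, 846, 869, 802 and 858 at 20, 203, 179, 155, 146 and 173 at 25, and 161, 164, 144, 148 and 149.6 at 28.6°C. It was lower at 20°C without overlap, far lower at 25°C, and about level from there. The log2 fold change against 15.5°C was -0.30 (SE 0.06) at 20, -2.61 (0.06) at 25 and -2.77 (0.06) at 28.6°C.

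The persephone contigs of comp64080_c0 moved apart at 20°C. Contig comp64080_c0_seq2 had 38.1, 40.7, 38.7, 56.9 and 41.3 CPM at 15.5, 359, 347, 324, 386 and 334 at 20, 9.44, 3.20, 10.1, 5.35 and 4.70 at 25, and 7.43, 12.9, 6.402, 5.60 and 6.88 at 28.6°C. Contig comp64080_c0_seq4 had 973, 936, 952, 940.3 and 949.9 CPM at 15.5, 436, 434, 473, 328 and 466 at 20, 116, 86.2, 65.9, 56.5 and 79.0 at 25, and 70.6, 73.8, 58.7, 68.5 and 66.2 at 28.6°C. At 20°C the former was far above and the latter well below every library of 15.5°C, with log2 fold changes of 3.02 (SE 0.24) and -1.15 (0.14). Their shares of the subcomponent were 4.09% and 90.1% at 15.5°C and 42.0% and 50.9% at 20°C. At 25°C and 28.6°C a contig that is no member, comp64080_c0_seq3, held 49.0% and 51.4%. The tested easter, snake and persephone-like contigs had a median of 12.9% unique reads, so the division of shared reads can enter these values too.

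Persephone-like subcomponent comp59021_c8 was the serine protease sum called higher at 28.6°C than at 15.5°C. Of the 29 serine endopeptidase sums, 3 had a log2 fold change above 0 there, and the others were the snake-like comp59974_c0 with 0.74 and comp60993_c1 with 0.30, neither called. The sum of comp59974_c0 was called higher at 20°C and 25°C, with 2.38 and 2.02. Its only member, comp59974_c0_seq2, was not tested. That contig held 4.46% of the counts of comp59974_c0, 8.97% at 20°C and 2.27% at 25°C. The values of this sum therefore come almost wholly from contigs that are no members. In comp59021_c8 the most abundant contig, comp59021_c8_seq4, had 13.0, 11.8, 12.2, 10.9 and 13.5 CPM at 15.5, 42.2, 49.3, 47.0, 37.1 and 48.6 at 20, 69.6, 66.4, 76.6, 70.2 and 75.7 at 25, and 84.0, 82.9, 71.1, 79.0 and 75.2 at 28.6°C. Each warmer group lay above 15.5°C without overlap, and only 25°C and 28.6°C overlapped. The sum of its 4 contigs was 13.9 ± 0.956, 49.2 ± 3.95, 85.7 ± 6.54 and 92.8 ± 3.51 CPM, a log2 fold change of 2.74 (SE 0.06) at 28.6°C against 15.5°C. All 3 of its members were called higher at 28.6°C and at 25°C, and they were chosen with their values known.

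**Figure D3:**
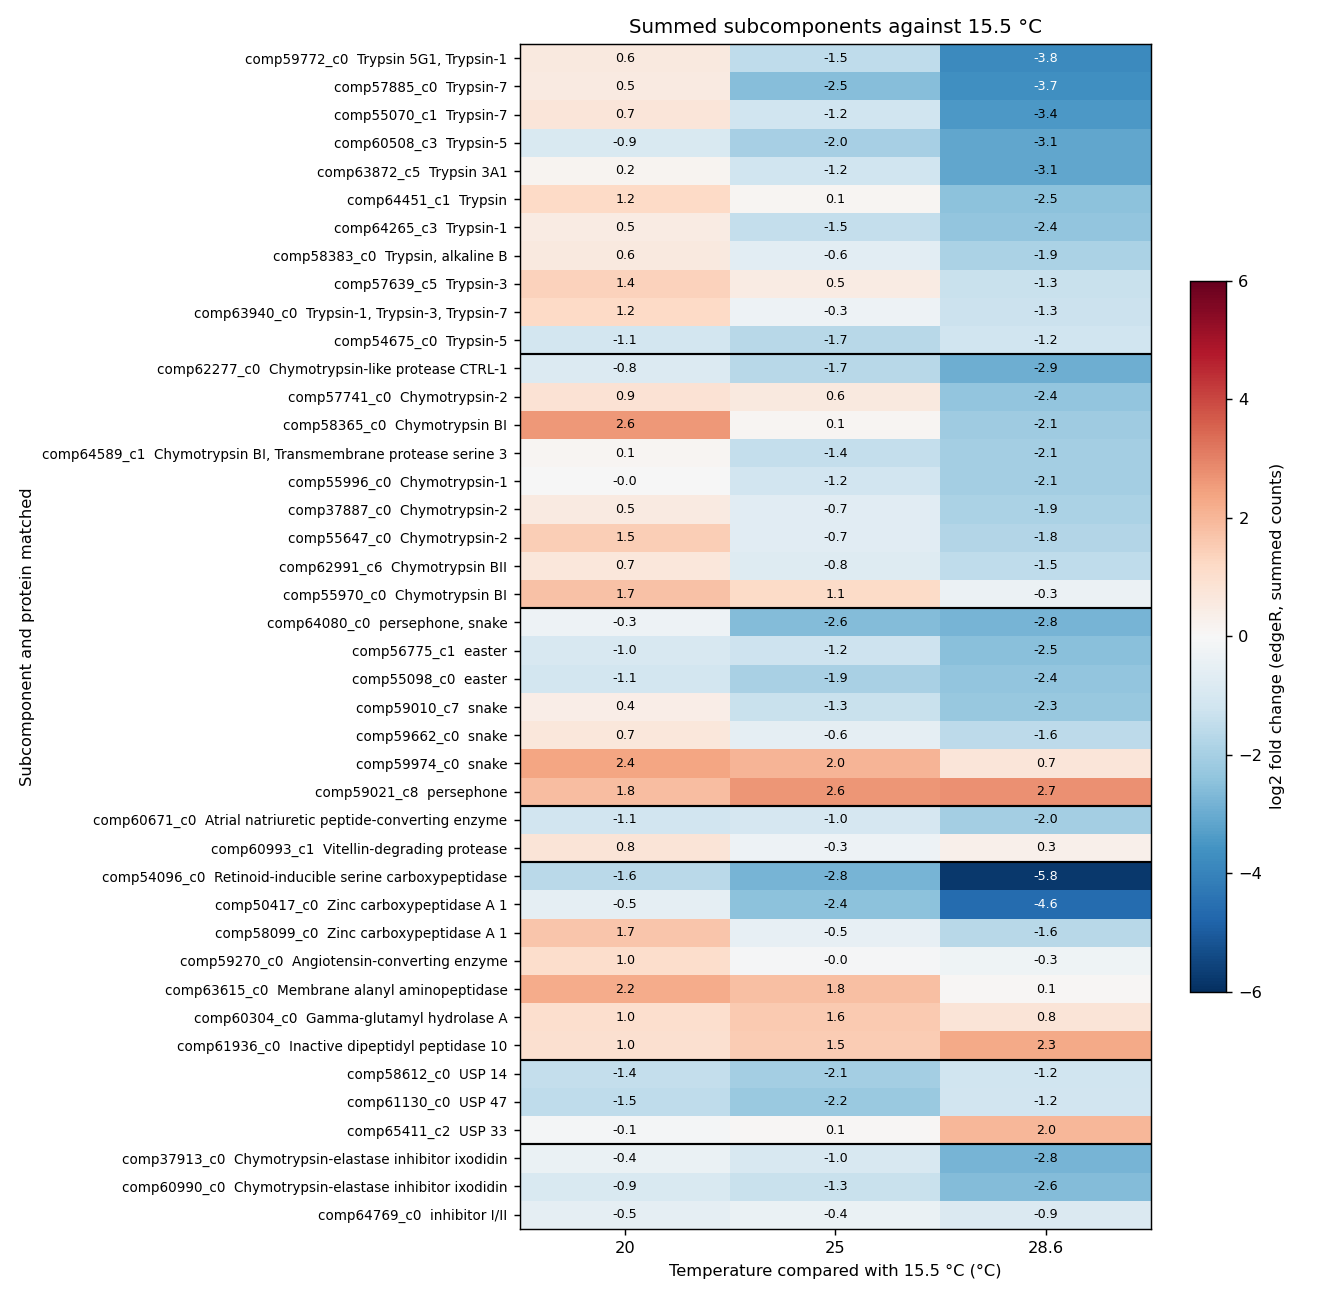
Log2 fold change (edgeR, counts summed per subcomponent) of the 42 subcomponents at 20, 25 and 28.6°C against 15.5°C; blue is lower, red is higher, and black lines separate trypsin-like, chymotrypsin-like, clip-domain, other serine endopeptidase, exopeptidase, deubiquitinating and inhibitor groups. At 28.6°C 35 of the 42 are below 0, and the lowest is the serine carboxypeptidase comp54096_c0 at -5.77. Some sums, such as comp59270_c0 and comp59974_c0, come almost wholly from contigs that are no members.

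Exopeptidases included the subcomponent with the lowest log2 fold change at 28.6°C of the 42, a serine carboxypeptidase. Their 11 contigs summed to 918 ± 44.1 CPM (SD, n = 5) at 15.5, 2738 ± 134 at 20, 731 ± 48.0 at 25 and 319.6 ± 23.3 at 28.6°C, and most of it was Zinc carboxypeptidase A 1 (comp58099_c0_seq1), a metallopeptidase that takes residues from the C-terminus of dietary peptides. That contig had 846, 813, 764, 768 and 759.7 CPM at 15.5, 2397, 2638, 2549, 2316 and 2516 at 20, 626, 527, 524, 517 and 550.0 at 25, and 264, 292, 236, 246 and 236 at 28.6°C. All 4 temperatures were separate, in the same order as for the trypsins. The reads of comp58099_c0_seq1 were 100% unique, and its log2 fold change against 15.5°C was 1.65 (SE 0.06) at 20°C and -1.63 (0.06) at 28.6°C. For the summed exopeptidases the log2 ratio against 15.5°C was 1.58 at 20°C and -1.52 at 28.6°C, 1.498 and -1.59 in the shorter set, and at 25°C it was -0.33 in all libraries and -0.32 in the longer set. Not every contig followed the sum. Of the 10 tested, 5 had a log2 fold change above 0 at 28.6°C against 15.5°C, with a median of 0.19 (-0.12 with library size alone). There 3 were called lower and 1 higher (13.3% of all contigs called, 5.72% lower and 7.58% higher). At 25°C against 15.5°C 6 of the 10 were above 0, with a median of 0.86.

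A second zinc carboxypeptidase contig, comp50417_c0_seq1, had no peak at 20°C. It had 40.1, 38.5, 34.4, 34.2 and 32.5 CPM at 15.5, 24.6, 26.3, 25.5, 21.3 and 23.2 at 20, 11.5, 6.27, 4.59, 4.60 and 5.28 at 25, and 2.14, 1.55, 1.17, 1.10 and 1.61 at 28.6°C. The groups stepped down with temperature without overlap, and the log2 fold change at 28.6°C against 15.5°C was -4.57 (SE 0.24).

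Retinoid-inducible serine carboxypeptidase (comp54096_c0_seq2), which is named from mammals, went further. Its level was 41.3, 40.1, 28.3, 39.3 and 36.3 CPM at 15.5, 12.3, 14.1, 13.9, 9.48 and 13.3 at 20, 8.55, 5.90, 4.48, 5.35 and 5.28 at 25, and 0.504, 0.929, 0.451, 0.439 and 0.573 at 28.6°C. The groups were again separate and in order of temperature. The mean at 28.6°C was 64.0-fold below that at 15.5°C, with a log2 fold change of -5.97 (SE 0.23). Only 0.131% of its reads were unique, and the sum of its subcomponent, both contigs of which are members, gave -5.77.

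Membrane alanyl aminopeptidase, an enzyme of the gut brush border that takes residues from the N-terminus, was high at 20°C and 25°C. Its 2 contigs shared nearly all their reads, with 1.59% and 1.02% unique. In comp63615_c0_seq1 the 15.5°C libraries had 10.9, 8.89, 7.08, 12.002 and 25.3 CPM, and in comp63615_c0_seq2 they had 34.0, 35.8, 37.6, 30.7 and 19.1. Replicate 5 was highest in the former and lowest in the latter. Their sum had 44.4, 43.9, 44.7, 42.6 and 44.3 CPM at 15.5, 206, 213, 208, 203 and 213 at 20, 151, 151, 165, 158 and 154 at 25, and 46.8, 47.0, 45.4, 47.3 and 48.0 at 28.6°C. The SD at 15.5°C was 7.22 and 7.33 CPM for the contigs and 0.826 CPM for the sum, which was 4.74-fold higher at 20°C and 3.54-fold higher at 25°C than at 15.5°C and 1.07-fold higher at 28.6°C.

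Inactive dipeptidyl peptidase 10, a relative of serine dipeptidases that lacks catalytic activity in mammals, was 1 of the few members that were highest at 28.6°C. The sum of both contigs of comp61936_c0 had 1.85, 2.26, 2.02, 2.37 and 1.42 CPM at 15.5, 3.75, 4.70, 4.09, 5.32 and 2.84 at 20, 6.67, 5.96, 6.84, 4.94 and 4.91 at 25, and 8.86, 10.1, 9.75, 10.8 and 9.83 at 28.6°C. Levels at 28.6°C were above every other library and those at 15.5°C below every other library, with a log2 fold change of 2.30 (SE 0.15). It too was chosen after its values were seen.

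**Figure D4:**
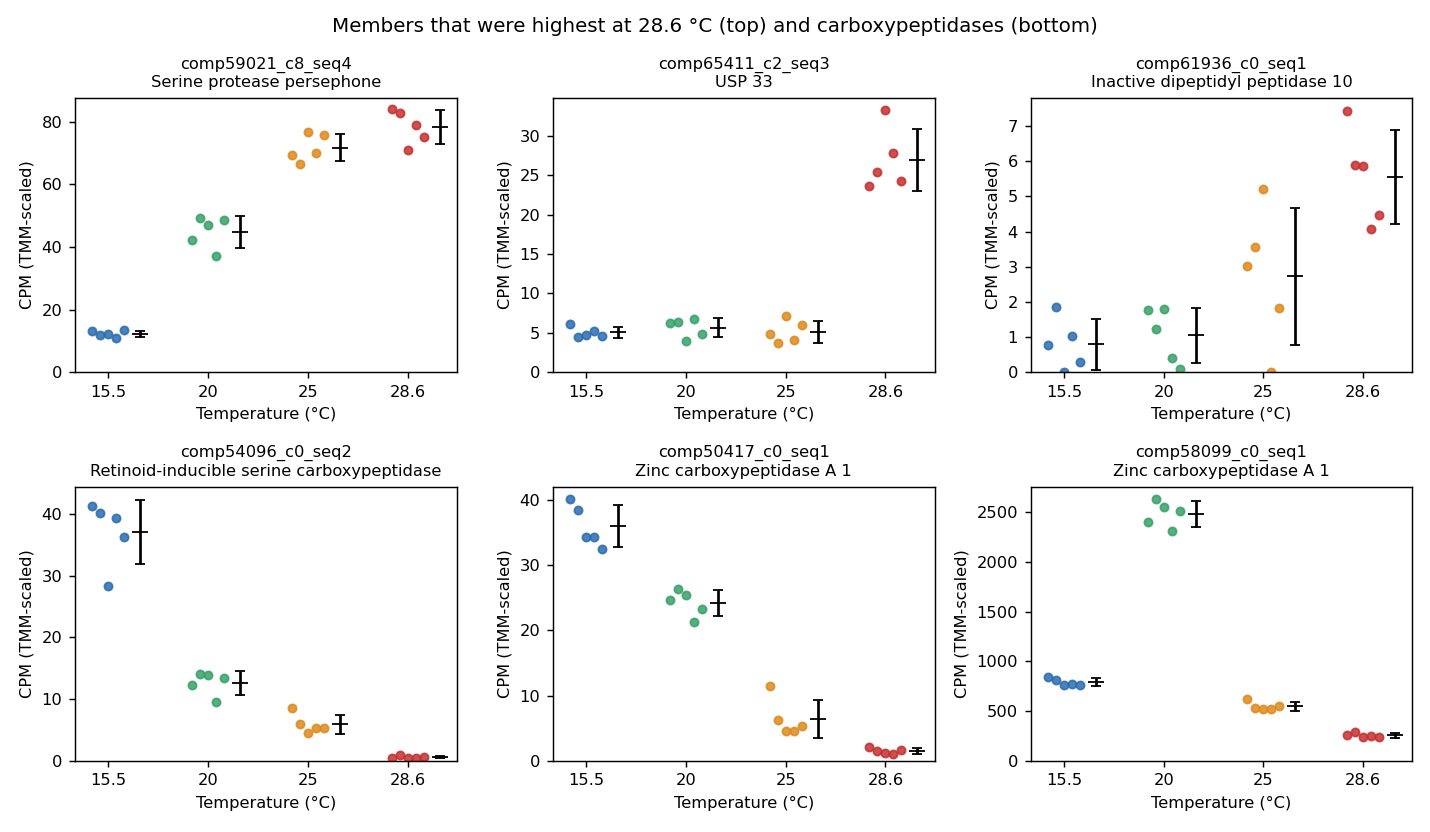
CPM (TMM-scaled, vertical axes from 0) in each library by temperature for 3 contigs that were highest at 28.6°C (top) and 3 carboxypeptidase contigs (bottom); points are libraries and bars are mean and SD (n = 5). USP33 reaches at most 7.09 CPM in the libraries up to 25°C and between 23.7 and 33.4 CPM at 28.6°C, while comp58099_c0_seq1 peaks at 20°C.

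Deubiquitinating enzymes were the group whose summed level at 28.6°C was higher than at 20°C and 25°C. Their 6 contigs summed to 89.5 ± 3.33 CPM (SD, n = 5) at 15.5, 35.5 ± 2.64 at 20, 25.3 ± 2.78 at 25 and 65.5 ± 2.27 at 28.6°C. The log2 ratio at 25°C against 20°C was -0.49, 0.27 with library size alone, and -0.13 with library size alone once replicates 1 and 4 of 20°C were left out. Against 15.5°C it was -1.34 at 20°C and -0.45 at 28.6°C, -1.35 and -0.48 in the shorter set, and at 25°C it was -1.82 in all libraries and -1.81 in the longer set. USP14, which in mammals trims ubiquitin chains at the proteasome, carried most of the sum up to 25°C. Of the 3 subcomponents, only that of USP33 lay higher at 28.6°C than at 20°C without overlap, and 2 overlapped. Against 25°C all 3 lay higher without overlap. Of all subcomponents, 23.9% and 21.6% lay higher without overlap in these comparisons.

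USP14 (comp58612_c0_seq1) had 69.9, 68.8, 66.0, 70.9 and 66.1 CPM at 15.5, 22.8, 27.4, 24.8, 19.0 and 26.6 at 20, 16.7, 14.3, 16.7, 15.7 and 17.3 at 25, and 30.0, 30.7, 27.5, 31.0 and 32.7 at 28.6°C. All 4 temperatures were separate, although 20°C (at most 27.4 CPM) and 28.6°C (at least 27.5 CPM) only just. In the sum of the 2 contigs of its subcomponent these temperatures overlapped, with a log2 fold change of 0.25 (SE 0.07). The level of comp58612_c0_seq1 was lowest at 25°C, where the log2 fold change against 15.5°C was -2.08 (SE 0.08). USP33 (comp65411_c2_seq3), which in mammals acts on several receptors and transport proteins, had 6.13, 4.45, 4.75, 5.28 and 4.64 CPM at 15.5, 6.25, 6.43, 3.99, 6.71 and 4.89 at 20, 4.90, 3.69, 7.09, 4.07 and 5.95 at 25, and 23.7, 25.4, 33.4, 27.9 and 24.3 at 28.6°C. It was alike up to 25°C and higher at 28.6°C only, by a log2 fold change of 2.41 (SE 0.18) against 15.5°C.

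USP47, which in mammals removes ubiquitin from a DNA repair polymerase, was counted in 2 contigs that share most reads. Contig comp61130_c0_seq1 had 12.4 ± 2.52, 2.64 ± 2.06, 2.39 ± 0.622 and 5.03 ± 1.76 CPM and comp61130_c0_seq2 had 3.23 ± 2.46, 3.05 ± 2.82, 0.853 ± 0.720 and 2.02 ± 1.33 in the order of temperature. Their sum, 15.5 ± 0.968, 5.79 ± 1.34, 3.26 ± 0.610 and 6.96 ± 0.894 CPM, followed USP14 with its lowest level at 25°C.

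All 3 inhibitors of serine proteases were called lower at 28.6°C than at 15.5°C (13.3% of all contigs called, 5.72% lower). Their sum was 86.2 ± 2.52 CPM (SD, n = 5) at 15.5, 54.3 ± 5.02 at 20, 36.8 ± 1.31 at 25 and 11.4 ± 2.25 at 28.6°C, and the log2 ratio at 25°C against 20°C of -0.56 was 0.19 with library size alone and -0.24 with library size alone once replicates 1 and 4 of 20°C were left out. Against 15.5°C the ratio was -0.67 at 20°C and -2.92 at 28.6°C, -0.71 and -2.91 in the shorter set, and at 25°C it was -1.23 in all libraries and -1.25 in the longer set. The match named ixodidin is a peptide inhibitor of chymotrypsin and elastase known from ticks. Its contig comp37913_c0_seq1 had 60.7, 57.4, 63.6, 65.0 and 60.3 CPM at 15.5, 45.7, 45.4, 48.6, 41.9 and 45.3 at 20, 33.1, 29.9, 29.4, 30.2 and 30.5 at 25, and 11.1, 10.7, 8.39, 7.80 and 6.88 at 28.6°C. The 4 temperatures were separate, and the inhibitor had no peak at 20°C.

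A second ixodidin contig, comp60990_c0_seq4, had 7.15, 6.97, 4.75, 4.04 and 5.59 CPM at 15.5°C and no estimated counts at 28.6°C, at least 17.5-fold lower with a floor of 3 counts per library. It held 6.50% of its subcomponent, whose sum was 68.9 ± 3.24 CPM at 15.5°C and 11.4 ± 1.73 at 28.6°C. Serine protease inhibitor I/II (comp64769_c0_seq21) had 19.2 ± 1.503, 6.86 ± 1.26, 5.35 ± 0.275 and 2.42 ± 0.642 CPM. That contig held 5.63% of a subcomponent of 33 contigs, whose log2 fold change at 28.6°C against 15.5°C was -0.87 (SE 0.04), against -2.98 (0.17) for the contig.

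How far a contig speaks for its subcomponent was compared for the 66 tested members that share a subcomponent with other contigs. At 28.6°C against 15.5°C the log2 fold changes of contig and sum differed by a median of 0.51 and at most 6.17, and 7 of the 66 had opposite signs. Of all 50 contigs called, those alone in their subcomponent included, 39 belonged to a subcomponent whose sum was called too, and 1 had the opposite sign to its sum. The exception was a contig matched to a vitellin-degrading protease, an egg yolk protease named from the silkworm.

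That contig, comp60993_c1_seq1, had 62.1, 64.4, 66.7, 66.9 and 62.0 CPM at 15.5, 25.8, 27.2, 27.7, 23.7 and 27.2 at 20, 13.3, 9.59, 12.1, 11.2 and 11.1 at 25, and 9.07, 9.50, 9.83, 11.2 and 11.7 at 28.6°C, a log2 fold change of -2.65 (SE 0.09). It made up 3.86% of its subcomponent at 15.5°C and 0.497% at 28.6°C. The sum of comp60993_c1 was 1659 ± 33.7, 2857 ± 235, 1343 ± 107 and 2039 ± 149 CPM, and nearly all of it lay in comp60993_c1_seq4, which is no member. Of the reads of comp60993_c1_seq1, 91.0% were unique.

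**Figure D5:**
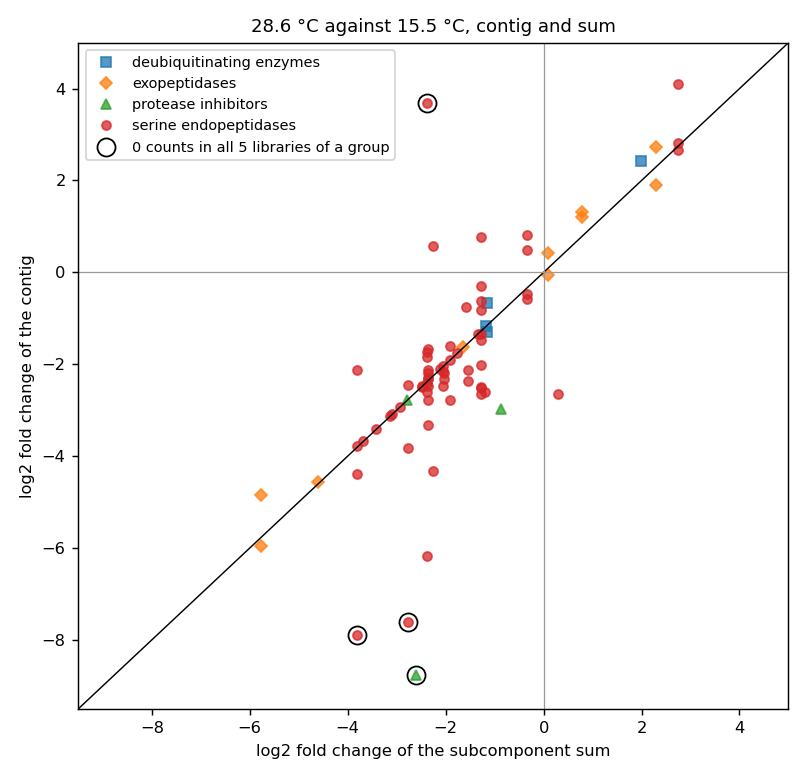
Log2 fold change at 28.6°C against 15.5°C of each of the 80 tested contigs (vertical) and of the sum of its subcomponent (horizontal), by class; the diagonal marks equal values, and rings mark contigs with 0 counts in all 5 libraries of a temperature, whose fitted values are not bounds. Most points lie below 0 on both axes, and 1 called contig, comp60993_c1_seq1, lies at -2.65 with a sum at 0.30.

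The 14 members that are alone in their subcomponent had at least 95.7% unique reads and so do not depend on the division of shared reads. At 28.6°C against 15.5°C all 14 had log2 fold changes below 0, and 10 were called (13.3% of all contigs called, 5.72% lower). The 5 libraries lay below those of 15.5°C without overlap for 14. Of all contigs 19.1% lay lower without overlap, and of all subcomponents 28.4%. Their median log2 fold change was -2.48, and it was 0.49 at 20°C and -1.09 at 25°C against 15.5°C. Their means were highest at 20°C for 9 and at 15.5°C for 5, and lowest at 28.6°C for 14.

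Over subcomponent sums, 21 of 42 were called lower and 2 higher at 28.6°C against 15.5°C (6.94% of all subcomponents called, 3.01% lower and 3.93% higher), with a median log2 fold change of -1.97. At 25°C 7 were called lower and 2 higher (3.12% called, 1.26% lower and 1.86% higher) and at 20°C 3 were called higher and 0 lower (2.07% called, 1.48% higher and 0.592% lower). Against 20°C, 27 were called lower and 1 higher at 28.6°C (6% called, 3.33% lower and 2.67% higher), and 6 lower and 0 higher at 25°C (1.46% called, 0.928% lower and 0.531% higher). Between 28.6°C and 25°C 7 were called lower and 0 higher (2.85% called, 1.24% lower and 1.61% higher). The subcomponents called higher at 28.6°C against 15.5°C were those of persephone (comp59021_c8) and Inactive dipeptidyl peptidase 10 (comp61936_c0). In some sums contigs that are no members held nearly all the counts. The share of the members was 0.246% in comp59270_c0, 4.46% in comp59974_c0 and 4.69% in comp54675_c0.

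The same table lists 20 other contigs of proteolysis that the search words do not reach, such as proteinases, caspase, ubiquitin ligases and a proteasome subunit, of which 16 were tested. At 28.6°C against 15.5°C 4 were called higher and 4 lower (13.3% of all contigs called, 7.58% higher and 5.72% lower). Those with the highest means were Zinc metalloproteinase nas-13 and Sequestosome-1. The metalloproteinase (comp57253_c0_seq1) had 625, 1831, 725 and 317 CPM in the order of temperature and peaked at 20°C as the trypsins did. Sequestosome-1 (comp62628_c0_seq1), a receptor that brings ubiquitinated proteins to autophagy, had 336, 369.6, 514 and 2081 CPM and was highest at 28.6°C. The 4 called higher were Sequestosome-1, the ubiquitin hydrolase calypso (comp61275_c1_seq1) and the ubiquitin ligases RNF139 (comp63534_c0_seq2) and HERC4 (comp64546_c1_seq1), with log2 fold changes of 2.63, 3.22, 2.97 and 2.40. The 4 called lower were both Collagenase contigs, Caspase-1 and a contig of ADAM22, a disintegrin and metalloproteinase domain-containing protein. The ADAM22 contig (comp57818_c5_seq9) had a mean of 3.26 CPM at 15.5°C and 0 at 28.6°C.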

How the data were processed

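RNA-seq libraries were made by the authors from pooled thorax RNA. Reads were trimmed with Trim Galore 0.3.0, joined, assembled with Trinity, mapped with Bowtie2 2.0.6 and counted with eXpress 1.5.1. In the deposited files a count is the number of fragments that map to a contig, in all or uniquely. The estimated count, as deposited, divides shared fragments by probability, and the effective count, tried as an alternative, adjusts that for bias. FPKM, deposited beside them, relates the estimate to contig length and to all mapped fragments. The authors' table of log2 values, centred per contig, was used for its annotation only, and eXpress parameter files only for the longest read position. Libraries of a temperature share larvae, so that adjusted p-values measure the spread between libraries only.

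Estimated counts were rounded, and contigs with at least 2 CPM in at least 4 libraries (29292) were fitted with edgeR 4.0.16 in R 4.3.3 (quasi-likelihood test, TMM, a coefficient per temperature, Benjamini-Hochberg over all contigs). Subcomponents (14870) were summed first and fitted in the same way. Standard errors are the size of the log2 fold change over the square root of F. The fit was tested on simulated data. Members and lists were chosen with earlier results of these data known. In each class the 3 members with the highest mean CPM and the 2 with the widest range between temperature means were named. Every other member described was chosen after its values were seen, also where its paragraph does not say so. Replicate numbers were checked for pairing. Alternatives were other tests (DESeq2 1.42.0), scalings, filters, counts, sets of libraries and each library left out. Python 3.11.15 made the tables. Sequences of the contigs are not used here.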

Additional observations from a re-analysis of the deposited data

Results flagged for a closer look

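Among 104 groups of 5 libraries, made of the named contigs and the summed groups at each temperature, 12 held a library whose distance to the next exceeded Dixon's critical value of 0.71, where chance gives about 1 in 20 groups. Replicate 1 of 25°C, the only 25°C library of the shorter set, stood high in 3 of them. It had 11.5 CPM of the zinc carboxypeptidase comp50417_c0_seq1 (the others 4.59 to 6.27), 814 CPM of summed exopeptidases (697 to 730.1) and 271 CPM of summed easter, snake and persephone-like contigs (194 to 216). Replicate 4 of 20°C, the library with the largest ribosomal-like share, was low in that sum with 842 CPM (935 to 949).

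The other 8 were single contigs, all of them in subcomponents with shared reads. Membrane alanyl aminopeptidase comp63615_c0_seq1 had 25.3 CPM in replicate 5 of 15.5°C (7.08 to 12.002), and USP47 comp61130_c0_seq2 had 7.49 CPM in the same library (1.21 to 2.74). Persephone comp64080_c0_seq2 had 56.9 CPM in replicate 4 of 15.5°C (38.1 to 41.3) and 12.9 CPM in replicate 2 of 28.6°C (5.60 to 7.43). Serine carboxypeptidase comp54096_c0_seq2 had 0.929 CPM in that last library (0.439 to 0.573). Ixodidin comp60990_c0_seq4 had 6.89 CPM in replicate 3 of 20°C (0 to 1.66), Trypsin-1 comp63940_c0_seq6 had 169.3 CPM in replicate 1 of 28.6°C (210.1 to 219.5), and Trypsin-1 comp63940_c0_seq8 had 781 CPM in replicate 2 of 25°C (909 to 947).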

How the results depend on the processing

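Where a called contig was fitted again as a contig, its sign changed in 1 case, among the 28 called at 25°C against 15.5°C in the shorter set, which has 1 library at 25°C. Unique counts could be fitted for 41 contigs only. The sum of the subcomponent had the opposite sign for 1 called contig at 28.6 against 15.5°C, 2 at 20 against 15.5°C, 1 at 28.6 against 20°C and 1 at 25 against 20°C. In the order 28.6 against 15.5, 25 against 15.5, 20 against 15.5, 28.6 against 20, 25 against 20 and 28.6 against 25°C, calls numbered 50, 28, 13, 51, 19 and 17 of 80 contigs. Sums per subcomponent gave 23, 9, 3, 28, 6 and 7 of 42, and unique counts gave 29, 13, 6, 28, 10 and 7 of 41 contigs tested, both with fewer features. The shorter set alone gave 16 at 25°C against 15.5°C and 10 at 25°C against 20°C, with 1 library at 25°C. Without the fold criterion 57, 51, 54 and 49 contigs were called at 25 and 20°C against 15.5°C, 25 against 20°C and 28.6 against 25°C. Leaving out each library in turn gave 48 to 52, 25 to 28, 9 to 15, 50 to 53, 16 to 21 and 15 to 18. With replicate number as a block, calls were 50, 28, 12, 52, 19 and 18. Deviations of same-numbered libraries correlated between -0.026 and 0.063, so that the numbers were not taken to pair libraries, although 15 of 30 correlated best with their own number where chance gives 6. In FPKM, 41, 23, 10 and 6 contigs were highest at 15.5, 20, 25 and 28.6°C. For named contigs, 385 alternative log2 fold changes moved by less than the spread between replicates and 34 by more. Contigs near 2 CPM, and those with few unique reads, are the least certain, and variation between animals cannot be estimated.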
